A study of Mus musculus with 2 samples.

Results

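Genes of mitosis, 60 in all, were chosen by name for their function as mitotic kinases, kinesins, kinetochore proteins and their partners. All 60 were among the 14197 genes of the deposited table, and they were sorted into 10 functional groups. Mitosis is driven by CDK1 bound to B-type cyclins, and is ended when the anaphase-promoting complex (APC/C), a ubiquitin ligase, marks cyclin B and securin for destruction. Polo, Aurora and NEK kinases build the spindle, kinesins move along its microtubules, and the kinetochore ties each chromosome to them while the spindle checkpoint holds the APC/C back. Most of these genes are transcribed in G2 and M phase and are low in resting cells, so their mRNA is widely used as a sign of dividing cells.

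The RNA came from 4T1 cells, an established murine breast cancer line, recorded as wild type. A total of 1 library was made from cells treated with 20 μM astragalin (AS), a plant flavonoid, for 24 h, and 1 library from vehicle-treated cells. With 1 library per condition there was no replicate check and no test, so the values compare 2 libraries, and a difference between cultures cannot be told apart from AS. Levels are RPKM, reads scaled to the exon length of the gene and to the size of the library. That length sums all annotated exons of a gene and can exceed that of its mRNA in these cells. Comparisons of levels between genes are therefore approximate. Whole reads could be recovered from the deposited values, 44820630 of them for AS and 50723670 for vehicle. A log2 fold change compares AS with vehicle, each with 0.1 RPKM added, so that negative values mean less RNA under AS. The interval given beside it is the 95% Clopper-Pearson interval of the read ratio and covers counting error only. The 7 epithelial markers ran from Cldn7 at 13.4 RPKM with AS and 14.1 with the vehicle to Krt18 at 707 and 902. Epcam stood at 335 and 357 RPKM. Of these 7 markers 5 were lower under AS, Krt19 by more than 1.5-fold (136 and 226 RPKM). Cldn4 (45.8 and 34.2 RPKM) and Cdh1 (95.5 and 84.6) were higher, and the part of these markers in the results was not tested. Of the markers of other cell types, 4 of 7 fibroblast genes and 4 of 8 immune genes were in the table, and 0 of 4 endothelial genes were. Most of those listed were below 1 RPKM in both libraries, such as Ptprc at 0.116 and 0.114, but the fibroblast marker Pdgfra stood at 4.24 and 4.16 RPKM and the macrophage marker Cd68, a lysosomal protein, at 24.0 and 28.1.

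Promoter stretches are shown for 6 of the genes, since genes of G2 and M phase are known for 2 promoter elements, the cell cycle homology region and the CCAAT box, which binds the factor NF-Y. Each is the 140 bases before the RefSeq start of the gene in GRCm38.p6, written 5′ to 3′ on the strand of the gene, with the letters TTTGAA or TTTAAA and CCAAT in capitals, on either strand (TTCAAA and ATTGG on the other). None of the 6 stretches overlaps an exon in GENCODE M21. Ccnb2, Top2a and Kif11 stand for a cyclin, the member with the highest level and a spindle motor, and Ect2, Mybl2 and Birc5 for the highest and the 2 lowest log2 fold changes among the members.
Ccnb2: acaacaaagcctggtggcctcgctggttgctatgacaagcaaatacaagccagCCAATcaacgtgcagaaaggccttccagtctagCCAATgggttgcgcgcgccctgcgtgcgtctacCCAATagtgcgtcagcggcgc
Top2a: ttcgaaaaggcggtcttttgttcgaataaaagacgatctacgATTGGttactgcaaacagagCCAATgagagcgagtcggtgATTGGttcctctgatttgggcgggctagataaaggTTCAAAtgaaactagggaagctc
Kif11: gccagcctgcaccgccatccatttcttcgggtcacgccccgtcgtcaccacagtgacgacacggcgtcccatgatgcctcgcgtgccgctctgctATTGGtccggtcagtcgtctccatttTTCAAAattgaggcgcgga
Ect2: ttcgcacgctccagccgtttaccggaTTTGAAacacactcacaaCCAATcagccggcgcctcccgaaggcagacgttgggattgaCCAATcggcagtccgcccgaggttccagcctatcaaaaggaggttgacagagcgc
Mybl2: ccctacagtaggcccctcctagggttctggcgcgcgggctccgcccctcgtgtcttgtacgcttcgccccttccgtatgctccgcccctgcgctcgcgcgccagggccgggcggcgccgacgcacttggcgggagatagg
Birc5: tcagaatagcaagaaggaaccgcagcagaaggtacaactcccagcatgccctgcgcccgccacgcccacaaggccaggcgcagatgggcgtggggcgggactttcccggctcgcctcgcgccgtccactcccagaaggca
The stretches lie at chr9:70421555-70421694 on the minus strand for Ccnb2, at chr11:99024190-99024329 on the minus strand for Top2a and at chr19:37376242-37376381 on the plus strand for Kif11. That of Ect2 is chr3:27153879-27154018 on the minus strand, that of Mybl2 chr2:163054495-163054634 on the plus strand and that of Birc5 chr11:117849097-117849236 on the plus strand. The Ccnb2 stretch holds 3 CCAAT boxes, at 87, 54 and 21 bases before the start. Outside this stretch Ccnb2 has TTTGAA at 167 bases before the start and at position 5 after it. The Top2a stretch holds 3 CCAAT boxes and 1 cell cycle homology region. The stretches of Mybl2 and Birc5, the members with the lowest log2 fold changes, hold neither set of letters.

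The members as a group were slightly lower in the AS library, and no member differed by a large amount. Of the 60 genes, 53 had a log2 fold change below 0 and 7 above it, against 39.1% of all 14197 genes below 0. With TMM, median-of-ratios or upper-quartile scaling of the reads, 58 of the 60 were below 0 and Cdc25b and Ect2 alone were above it. Each of these scalings lowered all genes by nearly the same amount and brought their median near 0, so the 39.1% does not apply there. This count nearly repeats the one below the median of all genes and adds no separate evidence. The median log2 fold change of the members was -0.17, and that of all genes was 0.066. The members ranged from -0.56 for Mybl2 to 0.13 for Ect2, and their standard deviation over genes was 0.14, against 0.31 over all genes. None of the 60 genes passed a log2 fold change of 1, the fold threshold of the study, where 0.31% of all genes were lower and 0.662% were higher by as much. None passed 1.5-fold either, where 2.01% of all genes were lower and 3.56% higher. The counts of 0 past these thresholds are near the shares over all genes and are no result about the members. Compared with the median of all genes, 58 of the 60 members lay below it, and Cdc25b and Ect2 lay above it.

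**Figure D1:**
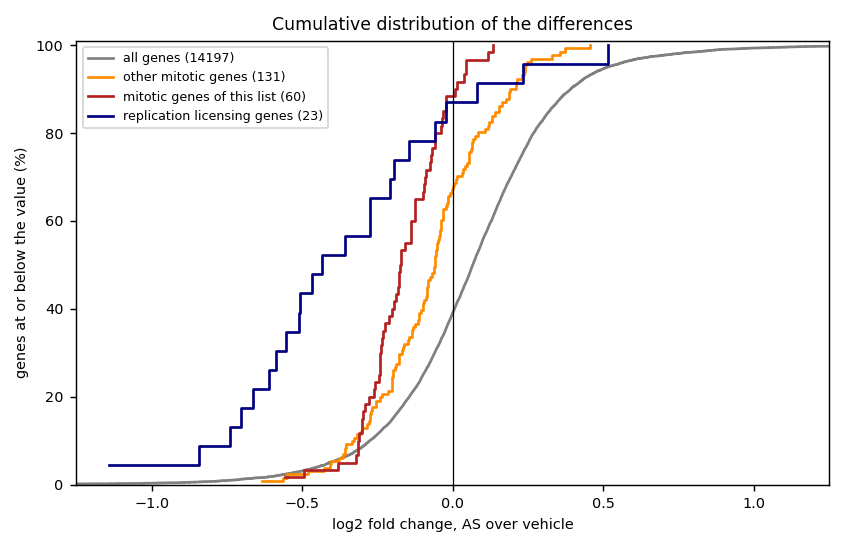
Cumulative share of genes (vertical axis, %) at or below a given AS-to-vehicle log2 fold change (horizontal axis), for all 14197 genes, the 60 mitotic genes, 131 other mitotic genes and 23 replication licensing genes. The curve of the 60 genes is steep and lies between -0.56 and 0.13, with its median of -0.17 left of the median of all genes at 0.066. The licensing genes reach further in both directions, from -1.14 to 0.51.

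The members were well covered, with at least 779 reads in each library, and took 1.32% of all reads under AS against 1.48% under vehicle. In bulk RNA, fewer dividing cells and less of these mRNAs per dividing cell cannot be told apart. The largest shares were those of Top2a and Mki67. Top2a, which encodes the topoisomerase that untangles sister chromatids and maps to chr11:98992943-99024189 (minus strand), stood at 239 RPKM under AS and 263 under vehicle. Its log2 fold change was -0.14, with an interval from -0.15 to -0.13. Mki67, the gene of the Ki-67 antigen that coats mitotic chromosomes, maps to chr7:135689784-135716361 (minus strand). It stood at 166 RPKM under AS and 203 under vehicle (74839 and 103593 reads), and its log2 fold change was -0.29, with an interval from -0.30 to -0.28. Both genes were lower in the AS library, Mki67 by more than Top2a, and their counting intervals did not overlap. Without these genes the median of the other 58 members was -0.17 as well. This is no check, since Mki67 lay below the median and Top2a above it, so leaving out both could not move it.

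**Figure D2:**
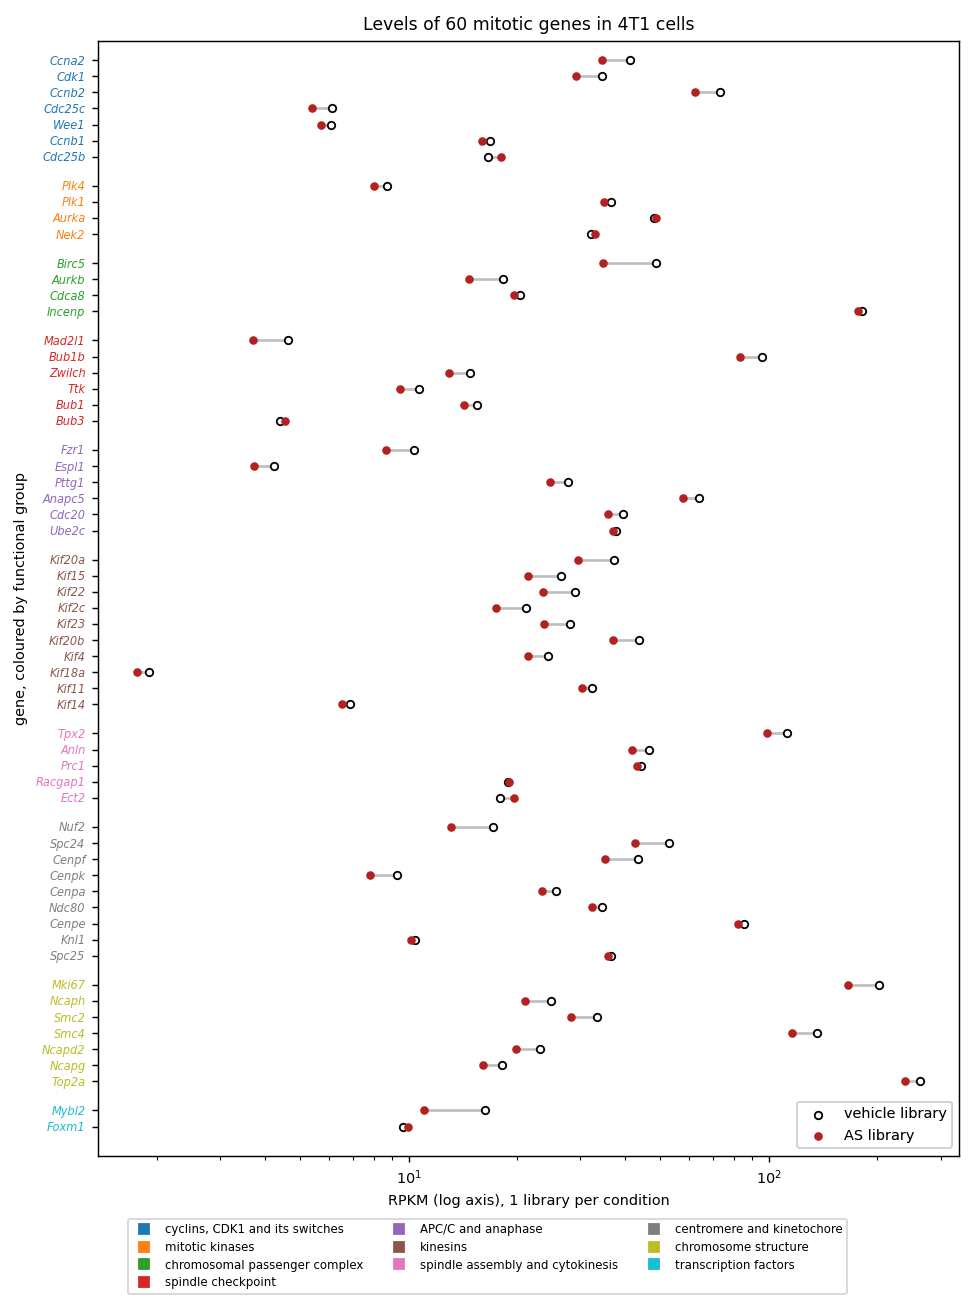
RPKM (horizontal log axis) of the 60 mitotic genes in the vehicle library (open circles) and the AS library (filled circles), 1 library per condition, with gene names coloured by functional group. Levels run from about 1.76 RPKM for Kif18a to 263 for Top2a, and the filled circle lies left of the open one for 53 of the 60 genes.

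Of the 8 condensin subunit genes in the table, which fold chromosomes for mitosis, all had log2 fold changes below 0, and 5 of them are members. Smc4, an ATPase of condensin, stood at 116 RPKM under AS and 136 under vehicle, giving a log2 fold change of -0.23. Its partner Smc2 stood at 28.2 and 33.2 RPKM, with a log2 fold change of -0.24. Of the condensin I subunits, Ncaph had 21.02 and 24.9 RPKM and a log2 fold change of -0.24. Ncapd2 had 19.9 and 23.1 RPKM and a log2 fold change of -0.21, and Ncapg had 16.1 and 18.2 RPKM and a log2 fold change of -0.18. The counting intervals of these 5 genes all overlapped each other. Of the condensin II subunits, which are not members, Ncapg2 had a log2 fold change of -0.27 and Ncaph2 of -0.27. Ncapd3 stood at 6.13 and 6.27 RPKM, and its log2 fold change of -0.033, with an interval from -0.12 to 0.050, lay outside the intervals of all 5 members. By RPKM, Smc4 was higher than each of the other 4 condensin members in both libraries.

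Of the 7 genes of cyclins, CDK1 and its switches, 6 were lower under AS and Cdc25b was higher. Cdk1, the kinase that starts mitosis, stood at 29.1 RPKM under AS and 34.5 under vehicle, giving a log2 fold change of -0.25 with an interval from -0.29 to -0.20. Ccna2, the cyclin of S and G2 phase, stood at 34.4 and 41.2 RPKM, with a log2 fold change of -0.26. Ccnb2 stood at 62.3 and 73.1 RPKM, with a log2 fold change of -0.23. The other B-type cyclin gene, Ccnb1, had 16.0 and 16.9 RPKM and a log2 fold change of -0.074, with an interval from -0.15 to -0.0049 that does not overlap that of Ccnb2, from -0.29 to -0.17. The CDC25 phosphatases switch CDK1 on and the WEE1 kinase switches it off. Cdc25c stood at 5.38 RPKM under AS and 6.14 under vehicle, giving a log2 fold change of -0.19, and Wee1 at 5.69 and 6.09 RPKM, with a log2 fold change of -0.10. Cdc25b went the other way, with 18.0 and 16.6 RPKM and a log2 fold change of 0.12 (interval 0.046 to 0.19). Cdc25b stayed above 0 under the 3 other scalings of the reads, but at smaller values. These were 0.050 with TMM, 0.050 with median-of-ratios and 0.039 with upper-quartile scaling, and no interval was computed for them.

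Of the 4 kinases that act on spindle poles and centrioles, Aurka and Nek2 had counting intervals that hold 0, and Plk1 and Plk4 had intervals below 0. Aurka, the Aurora kinase of spindle poles, stood at 48.5 RPKM under AS and 48.0 under vehicle. Nek2, a kinase that splits the centrosomes, had 32.8 and 32.0 RPKM. Plk1, the Polo kinase, had 34.8 and 36.5 RPKM. The log2 fold changes were 0.015 for Aurka, 0.037 for Nek2 and -0.069 for Plk1, and those of Aurka and Nek2 turned negative with TMM scaling. Plk4, which starts centriole duplication, had 7.99 and 8.72 RPKM and a log2 fold change of -0.12, with an interval from -0.20 to -0.049. These 4 kinases had a median of -0.027 on the log2 scale, the nearest to 0 of the 10 groups, which became 0.070 when trends with exon length and expression were removed.

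The chromosomal passenger complex, which corrects faulty attachments and steers cytokinesis, was split. Birc5, the gene of survivin, maps to chr11:117849251-117855743 (plus strand). It stood at 34.5 RPKM under AS and 48.7 under vehicle, with 5277 and 8425 reads. Its log2 fold change was -0.50, with an interval from -0.55 to -0.45, the lowest but one of the 60 genes. Aurkb, the kinase of the complex, had 14.7 and 18.3 RPKM, a log2 fold change of -0.31 with an interval from -0.40 to -0.23. Cdca8, the gene of borealin, had 19.6 and 20.4 RPKM and a log2 fold change of -0.059, with an interval from -0.12 to -0.0018. Incenp, the scaffold, had 176 and 181 RPKM and a log2 fold change of -0.038, with an interval from -0.059 to -0.017. The intervals of Birc5 and Aurkb lay below those of Cdca8 and Incenp and did not overlap each other. Per length, Incenp was the highest of the 4 genes in both libraries.

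**Figure D3:**
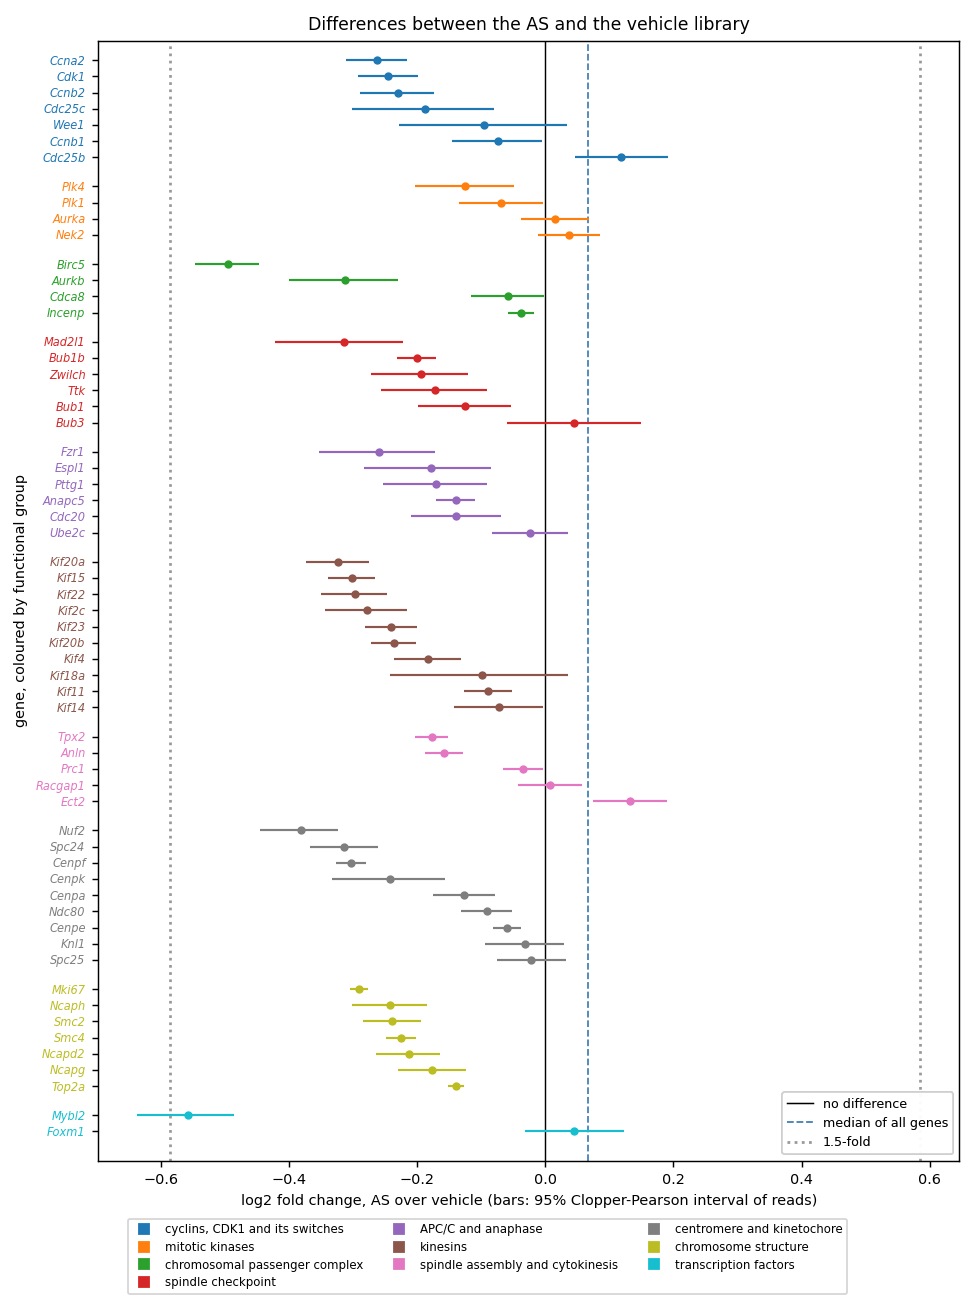
AS-to-vehicle log2 fold change (horizontal axis) for the 60 mitotic genes, sorted within 10 functional groups given by colour. Points are the values with 0.1 RPKM added and bars the 95% Clopper-Pearson intervals of the reads, for counting error only. Mybl2 at -0.56 and Birc5 at -0.50 lie furthest to the left, no point passes a dotted 1.5-fold line, and Cdc25b and Ect2 alone lie right of the dashed median of all genes.

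Of the spindle checkpoint genes, 5 of 6 were lower with AS. Mad2l1, the gene of MAD2, which binds and blocks CDC20, stood at 3.69 RPKM under AS and 4.61 under vehicle, giving a log2 fold change of -0.31. Bub1b, the gene of BUBR1, had 83.2 and 95.6 RPKM and a log2 fold change of -0.20. The checkpoint kinase gene Ttk had 9.47 and 10.7 RPKM and a log2 fold change of -0.17, and the kinase gene Bub1 had 14.2 and 15.5 RPKM and a log2 fold change of -0.12. Zwilch, a subunit of the complex that brings dynein to kinetochores, had 12.9 and 14.8 RPKM and a log2 fold change of -0.19. Bub3, which carries BUB1 and BUBR1 to the kinetochore, had 4.53 and 4.39 RPKM and a log2 fold change of 0.044, with an interval from -0.059 to 0.15, and it turned negative with TMM scaling. The group had a median of -0.18. By RPKM, Bub1b was the highest and Bub3 and Mad2l1 were the lowest of the group in both libraries.

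The 6 genes of the APC/C and of anaphase were all below 0. Cdc20, the activator of the APC/C in mitosis, stood at 35.8 RPKM under AS and 39.4 under vehicle, giving a log2 fold change of -0.14. Fzr1, the gene of CDH1, its activator at the end of mitosis and in G1, had 8.65 and 10.4 RPKM and a log2 fold change of -0.26. Ube2c, the ubiquitin-conjugating enzyme that works with the APC/C, had 37.0 and 37.6 RPKM and a log2 fold change of -0.024, with an interval from -0.083 to 0.035 that holds 0. Anapc5, a core subunit, had 57.9 and 63.8 RPKM and a log2 fold change of -0.14. Espl1, which encodes separase, the protease that cuts cohesin, and Pttg1, which encodes its inhibitor securin, had log2 fold changes of -0.18 and -0.17. Per length, securin mRNA was above separase mRNA in both libraries, with 24.7 and 3.72 RPKM with AS and 27.8 and 4.23 with the vehicle.

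All 10 kinesin genes of this group were lower in the AS library, with a median of -0.24. Kinesin genes among the 131 other mitotic genes mostly went the other way. Kif13a (0.24) and Kif2a (0.15) had intervals above 0. Kif18b (0.060, interval -0.022 to 0.14) and Kifc1 (-0.047, interval -0.11 to 0.018) had intervals that hold 0. Kif20a, a kinesin of the central spindle needed for cytokinesis, stood at 29.6 RPKM under AS and 37.1 under vehicle, giving a log2 fold change of -0.32 and the lowest of the kinesins. Of its exon bases 29.3% are shared with Cdc23 on the opposite strand, and whether the counting used the strand is not stated in the sources used here. Of the members, 6 others share over 10% of their exon bases with a gene on the opposite strand, namely Ube2c, Kif4, Ncapg, Cdc25c, Ccna2 and Prc1, so their values carry the same uncertainty. Kif15, a spindle motor, had 21.5 and 26.5 RPKM and a log2 fold change of -0.30. Kif22, a motor on chromosome arms, had 23.6 and 29.0 RPKM and a log2 fold change of -0.30, and Kif2c, a microtubule depolymerase at centromeres, had 17.5 and 21.2 RPKM and a log2 fold change of -0.28. Kif23, the motor of the centralspindlin complex, had 23.8 and 28.1 RPKM and a log2 fold change of -0.24. Kif20b, which acts in cytokinesis, had 36.9 and 43.5 RPKM and a log2 fold change of -0.24, and Kif4, a chromokinesin, had 21.5 and 24.4 RPKM and a log2 fold change of -0.18. The smallest differences of this group were those of Kif11, Kif14 and Kif18a (-0.10). Kif11, the motor that pushes the spindle poles apart, had 30.3 and 32.2 RPKM and -0.089 on the log2 scale. Kif14, a cytokinesis motor, had 6.54 and 6.88 RPKM (-0.072). Kif18a, which dampens chromosome movement, had the lowest level of all members, with 1.76 and 1.90 RPKM, and its interval from -0.24 to 0.035 holds 0.

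Of the 5 genes of spindle assembly and cytokinesis, 3 were below 0. Tpx2, which activates Aurora A on spindle microtubules, stood at 99.1 RPKM under AS and 112 under vehicle, giving a log2 fold change of -0.18. Anln, the gene of anillin at the cleavage furrow, had 41.6 and 46.4 RPKM and a log2 fold change of -0.16. Prc1, which bundles microtubules of the central spindle, had 43.1 and 44.1 RPKM and a log2 fold change of -0.035. Racgap1 and Kif23 encode the 2 proteins of centralspindlin, which recruits the exchange factor ECT2 to open the RhoA pathway of cytokinesis. Racgap1 had 18.9 and 18.8 RPKM, a log2 fold change of 0.0073 with an interval from -0.043 to 0.058, which lies above that of Kif23, from -0.28 to -0.20, and its value turned negative with TMM scaling. Ect2, at chr3:27097222-27153878 (minus strand), had 19.7 and 17.9 RPKM from 4754 and 4907 reads. Its log2 fold change of 0.13, with an interval from 0.075 to 0.19, was the highest of the 60 genes, and 60.7% of all genes had a lower one.

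All 9 centromere and kinetochore genes were below 0. The NDC80 complex, which holds the microtubule end, has 4 subunits. Nuf2, at chr1:169497934-169531464 (minus strand), stood at 13.1 RPKM under AS and 17.1 under vehicle, giving a log2 fold change of -0.38 with an interval from -0.44 to -0.32. Ndc80, with which NUF2 pairs, had 32.4 and 34.5 RPKM and a log2 fold change of -0.092 with an interval from -0.13 to -0.052. Spc24 had 42.4 and 52.8 RPKM and -0.31 on the log2 scale, and Spc25, its partner, had 35.9 and 36.4 RPKM and -0.022. In both pairs of the complex, 1 gene was lower than its partner by more than the counting intervals. Cenpf, a large protein of the outer kinetochore, had 35.2 and 43.4 RPKM and a log2 fold change of -0.30, and Cenpe, the kinetochore kinesin, had 82.1 and 85.5 RPKM and a log2 fold change of -0.059. Cenpk, of the inner kinetochore, had 7.83 and 9.28 RPKM and a log2 fold change of -0.24, and Cenpa, the histone H3 variant that marks centromeres, had 23.5 and 25.7 RPKM and a log2 fold change of -0.13. Knl1, the scaffold for BUB proteins, had 10.2 and 10.4 RPKM and a log2 fold change of -0.032, with an interval from -0.094 to 0.030.

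Both transcription factors among the members act on G2 and M phase genes, B-MYB with the MuvB complex first and FOXM1 after it. Mybl2, the gene of B-MYB, maps to chr2:163054687-163084688 (plus strand). It stood at 11.0 RPKM under AS and 16.3 under vehicle, from 2298 and 3837 reads. Its log2 fold change of -0.56, with an interval from -0.64 to -0.49, was the lowest of the members, and 2.35% of all genes had a lower one. With TMM, median-of-ratios or upper-quartile scaling it passed 1.5-fold, as the only member. Foxm1 had 9.95 and 9.64 RPKM and a log2 fold change of 0.045, with an interval from -0.032 to 0.12, and it turned negative with TMM scaling. The intervals of both factors lay far apart.

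**Figure D4:**
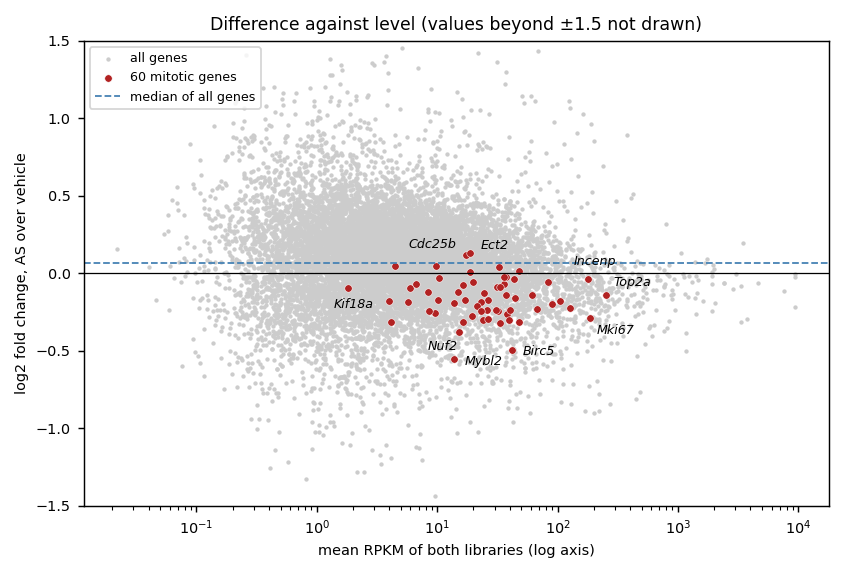
AS-to-vehicle log2 fold change (vertical axis) against the mean RPKM of both libraries (horizontal log axis) for all genes (grey) and the 60 mitotic genes (red), with the median of all genes as a dashed line. The red points lie in a band around -0.17 from Kif18a at low to Top2a at high levels, with Mybl2 and Birc5 below it and Ect2 and Cdc25b above.

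Across the members, Spearman's rho between the log2 fold change and the mean RPKM was -0.059 over the 60 genes, and -0.16 over all genes. With the summed exon length it was 0.014 over the members and 0.20 over all genes. These are descriptions across genes of the same 2 libraries. When trends with exon length and mean expression were removed, the median of the members was -0.13, and 50 of the 60 genes were below 0.

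A wider list of 131 other mitotic genes, all in the table, lay between the members and the whole table. The median over this list was -0.060, with 88 of its 131 members below 0. None passed a log2 fold change of 1, where 0.31% of all genes were lower and 0.662% higher. By 1.5-fold, 2.01% of all genes were lower and 3.56% higher, and 1 gene of this list passed. That gene was Pkmyt1, a kinase that holds CDK1 inactive, with 2.88 RPKM with AS and 4.52 with the vehicle and a log2 fold change of -0.63. In the same list of kinases, Haspin, the kinase that places the passenger complex at centromeres, had 6.43 and 4.66 RPKM and the highest log2 fold change, 0.45. The other subunits of the APC/C had a median of -0.082 over 15 genes and ran from -0.36 for Anapc10 to 0.37 for Anapc16. The other centromere and kinetochore genes had a median of -0.064 over 27 genes, from -0.43 for Pmf1 to 0.14 for Cenpu. The other checkpoint genes had a median of -0.074 over 8 genes, from Mad2l2 (-0.48) to Trip13 (0.15). The other spindle and cytokinesis genes had a median of -0.10 over 35 genes (27 below 0), from Haus5 (-0.55) to Kif13a (0.24). Cohesin and the other condensin genes had a median of -0.036 over 16 genes, from Cdca5 (-0.35), the gene of sororin, to Wapl (0.26), which releases cohesin. The list of DREAM and MuvB genes, which includes E2f4 and also Mybl1, a gene of the MYB family, had a median of -0.042 over 11 genes. It ran from Rbl1 (-0.26) to Mybl1 (0.24).

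The 23 genes of the replication licensing list, which act earlier in the cycle, are given beside the members for scale. Besides licensing factors the list holds genes of origin firing, such as Cdc45, Cdc7 and the Gins genes, and the licensing inhibitor Gmnn. The 23 genes had a median log2 fold change of -0.43, and 7 of them were lower by at least 1.5-fold, against 2.01% of all genes. By more than 1 on the log2 scale 1 was lower, Cdc6, against 0.31% of all genes. Of the 23 genes, 20 were below 0 and 3 above it, the highest being Orc2 at 0.51. Cdc6, which loads the MCM helicase, stood at 1.75 RPKM under AS and 3.98 under vehicle. The difference between both lists was not tested, since each condition has 1 library.

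Promoter sequences were matched by symbol in the RefSeq table for 49 of the 60 members, with the first listed start used for the 4 genes with several. In the 300 bases from 250 before to 50 after the start, on both strands, 37 of the 49 (75.5%) held TTTGAA or TTTAAA, against 27.8% of all 27025 promoters and 19.3% of the 9680 promoters of genes in the deposited table. TTTGAA alone was in 67.3% of the members' promoters and 18.1% of all promoters, and TTTAAA in 22.4% and 13.2%. With only the 250 bases before the start, TTTGAA was in 34.7% of the members' promoters and 16.3% of all, and TTTGAA or TTTAAA in 46.9% and 25.5%. CCAAT was in 35 of the 49 (71.4%) and in 37.9% of all promoters, and both elements were in 59.2% and 10.9%, or 38.8% and 9.00% with only the bases before the start. In the 300 bases, TTTGAA or TTTAAA was in 38.4% of 112 promoters of other mitotic genes and in 6 of 18 licensing promoters. CCAAT was in 51.8% of the other mitotic promoters and in 11 of the 18 licensing promoters (61.1%), and at least 2 CCAAT were in 42.9% of the members' and 44.4% of the licensing promoters. The letters of an E2F site (TTTCCCGC, TTTCGCGC, TTTGCCGC or TTTGGCGC), a search added after the other values were seen, were in 5 of the 49 (10.2%), in 9 of the 18 licensing promoters, in 14 of the 112 other mitotic promoters and in 2.32% of all promoters. None of these sets of letters contains another in full. The members with TTTGAA or TTTAAA had a median log2 fold change of -0.14 and the 12 without it -0.21, an order that turned with only the bases before the start (-0.18 over 23 genes with it and -0.15 over 26 without). For CCAAT the medians were -0.14 over 35 genes with it and -0.24 over 14 without. For the E2F letters they were -0.21 over 5 genes with them and -0.14 over 44 without. None of these differences was tested, and they do not share a direction. Of the 2 lowest members, the Mybl2 window held no match to any of these letters, and the Birc5 window held TTTAAA at 220 bases before the start, outside the printed stretch. Only these exact letters were searched, so other forms of the elements, such as other E2F sites, would be missed. A match of letters is a description and shows no binding.

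**Figure D5:**
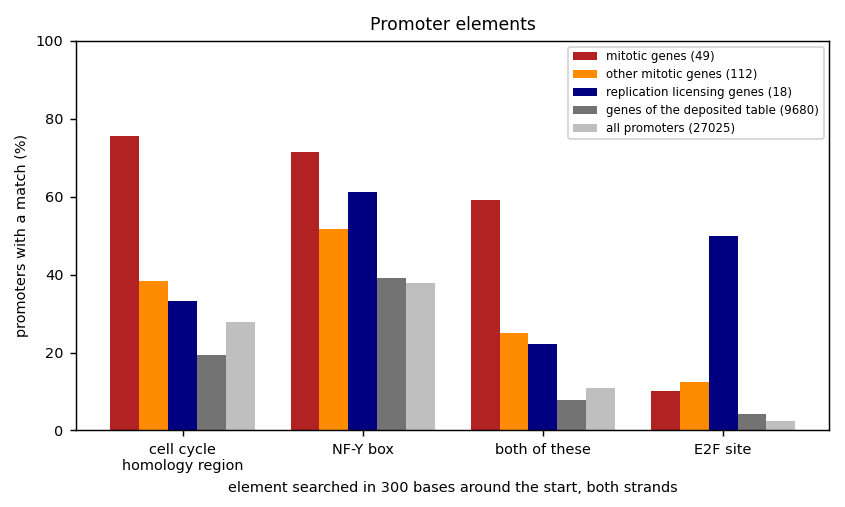
Share of promoters (vertical axis, %, from 0) with a match on either strand to the cell cycle homology region, the NF-Y box, both, or an E2F site (horizontal axis), for the mitotic genes, other mitotic genes, replication licensing genes, genes of the deposited table and all promoters. The mitotic genes have the highest bars for the homology region (75.5%) and the NF-Y box (71.4%), and the licensing genes for the E2F site (9 of 18 promoters).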

How the data were processed

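The authors deposited 1 table for both libraries, with the RPKM of each library, a mean log2 CPM over both, and 3 columns of their own comparison (a log2 fold change, a p-value and an FDR) that were not used. Per the labels, the submitters' processing notes name fastp 0.23.4, STAR 2.5.3a, featureCounts and the human build GRCh38, while the table lists mouse symbols. The RNA was prepared with a stranded mRNA kit. The unit RPKM was found from the values. Library sizes of 44909683 (AS) and 50820728 (vehicle) made the reads whole, and with the deposited mean log2 CPM gave whole reads (tolerance 1e-05) for 14195 of 14197 genes, all 60 members included. Of 13500 genes with 1 entry in GENCODE M21 (GRCm38), 94.2% had an implied exon length equal to the one there, so gene coordinates are taken from it. No gene was at 0, and the lowest mean was 29.5 reads.

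The files hold RPKM and 1 library per condition, so the fold change was the log2 ratio with 0.1 RPKM added, with no test, and thresholds of 1 on the log2 scale and of 1.5-fold were used without a p-value. Recovery of reads, scaling factors and intervals were tested on simulated data. Members, lists and motifs were chosen with earlier results of these data known. All members were named. From each other mitotic list the genes of highest and lowest log2 fold change were named, given 100 or more reads on average. Cdc6 was named from the licensing list, and Orc2 was added after its value was seen. The 3 condensin II genes and the kinesin genes Kif2a, Kif18b and Kifc1 were added after their values were seen. Alternatives were 0 or 1 RPKM added, rescaling of the reads by TMM, by the median of ratios or by the upper quartile (0.5 reads added), removal of trends in 20 bins of exon length and of mean RPKM, a minimum mean of 50 or 500 reads, and the promoter without the bases after the start. The computations ran in Python 3.11.15.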

Additional observations from a re-analysis of the deposited data

How the results depend on the processing

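The median log2 fold change of the members was -0.24 with TMM, -0.24 with median-of-ratios and -0.26 with upper-quartile scaling, whose log2 factors were 0.069, 0.069 and 0.080 and which brought the median of all genes from 0.066 to 0.00018, 9.3e-05 and -0.011. Under each of these scalings 1 member, Mybl2, was lower by at least 1.5-fold. The median was -0.18 with 0 RPKM added, -0.16 with 1 RPKM and -0.13 with trends removed. It was -0.17 without Top2a and Mki67, a choice made after seeing the data. That choice could not move the median, since these genes lie on either side of it. The count of members past 1 on the log2 scale was 0 under every alternative run. Of the 10 group medians, that of the mitotic kinases changed sign, to 0.070 with trends removed, and all were below 0 under the other alternatives. With trends removed 5 members changed sign (Incenp, Plk1, Racgap1, Spc25 and Ube2c), and with each scaling 5 did (Aurka, Bub3, Foxm1, Nek2 and Racgap1). With only the bases before the start, TTTGAA was in 34.7%, TTTGAA or TTTAAA in 46.9% and both elements in 38.8% of the members' promoters. A minimum mean of 500 reads left 1.07% of all genes lower and 1.79% higher by at least 1.5-fold, and 0.0788% lower and 0.394% higher by more than 1 on the log2 scale.

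No paired analysis was possible because each condition has 1 library. The reads limit the members' fold changes little, and the spread between cultures was not measured. Of the 60 members, 20 share exon bases with another gene in GENCODE M21, and 7 share over 10% of them, all with a gene on the opposite strand.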
